A study of Mus musculus with 2 samples.

Results

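The genes described here encode the cell cycle and DNA replication machinery, and they were measured in mouse embryoid bodies, ball-shaped aggregates of differentiating embryonic stem (ES) cells. They were chosen by symbol: A, B, D and E cyclins, the cyclin-dependent kinases Cdk1 to Cdk7, the Cdkn inhibitors, the Cdc and E2f families, the Mcm and Orc genes of replication origins, the Aurora and Polo-like kinases, the Bub and Cenp genes and Mki67, leaving out the Cdc42 family, Cdc73 and Cdkn1c. Of 13697 genes named by a probe with exactly 1 gene symbol, 75 matched, through 77 probes. Both groups are embryoid bodies kept with 2 µM retinoic acid for 4 days in a serum and N2 medium. One group came from Elongin A+/+ ES cells and the other from Elongin A-/- ES cells, and each was hybridised to 1 array. Elongin A is the subunit of the Elongin complex that stimulates transcript elongation by RNA polymerase II. The sources used here do not give the allele, the number of ES clones or any pooling of cultures.

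The cell cycle is driven by cyclin-dependent kinases, which are active only when bound to a cyclin and are held back by small inhibitor proteins. D-type and E-type cyclins push cells from the first gap phase into DNA synthesis, where E2F factors switch on replication genes, and A-type and B-type cyclins with Cdk1 carry cells into mitosis. Retinoic acid drives ES cells, which divide fast with a short first gap phase, towards neural progenitors and then neurons, which stop dividing.

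With 1 array per genotype no replicate exists, none of the differences below was tested, and the genotype cannot be told apart from the ES cell line, the culture or the array. What error can be read from the arrays is how far probes for the same gene disagree in their log2 difference between the arrays. The SD of these differences within a gene was 0.43, over 224 genes with several probes above the array median on both arrays. It comes from the same 2 arrays, so it holds no variation between cultures, cell lines or hybridisations. Intensities are given after quantile normalisation, first for the Elongin A+/+ array and then for the Elongin A-/- array. Log2 differences are Elongin A-/- minus Elongin A+/+. The floor is the array median, 1.03, and values under it were set to it, so that a gene under it on 1 array has only a bound. The Eloa probe, for the gene of Elongin A, had intensities of 3.88 and 3.58, and as the sources used here do not place it relative to the deleted part, it does not check the labels. Markers of cell types differed far more than the cell cycle genes did. Their lists were chosen with earlier results of these data known, so this contrast was partly set by the choice. All 7 measured of 10 endothelial and blood markers were at least 2-fold higher on the Elongin A-/- array, as 6.77% of all genes were. Summed intensity of the 10 markers was 12.4 and 164. Just 3 of the 7 were above the floor on both arrays. The other 4 (Tal1, Esam, Pecam1 and Hbb-bh1) were above it only on the Elongin A-/- array, so they are bounds and could not come out lower. Cdh5, Gata1 and Tie1 were under the floor on both arrays. Of 7 neural progenitor markers 5 were lower by 2-fold or more, as 5.99% of all genes were, and 0 higher by that margin (summed intensity 182 and 70.4). None of them was under the floor on both arrays, and Sox1 was above it only on the Elongin A+/+ array. Pax6 went the other way, by less than 2-fold (9.33 and 12.9, 0.46). Of 7 measured markers of postmitotic neurons 5 were lower by 2-fold or more and 0 higher by that margin (summed intensity over 8 named markers 381 and 225). Tubb3, the brightest on the Elongin A+/+ array, was level (179 and 168, -0.09). It lies on chromosome 8, where the median of all measured genes was 0.43. Dcx was above the floor only on the Elongin A-/- array, at least 1.38-fold higher, and Map2 was under it on both. Of 5 pluripotency markers 2 (Dppa4 and Sall4) were at least 2-fold higher and 1 (Zfp42) lower (summed intensity 15.0 and 20.3). The shares over all genes were 6.77% and 5.99%. By any margin 3 of the 5 were lower, Klf2 and Pou5f1 being the others, and the median was -0.72. Pou5f1 was above the floor only on the Elongin A+/+ array. Nanog and Esrrb were not named among the probes. In bulk samples, fewer cells of a type and less RNA per cell cannot be told apart, and the part of this mixture in the values below was not tested.

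As a set, the cell cycle genes held few wide differences between the arrays. Above the floor on both arrays were 67 of the 75 genes, 3 lay above it only on the Elongin A+/+ array (Ccna1, Ccnb3 and Cdkn1b), 1 only on the Elongin A-/- array (Cdk3), and 4 on neither (Aurkc, Plk5, Mcm8 and Cenpb). Just 1 of the 71 genes measured on at least 1 array was at least 2-fold higher on the Elongin A-/- array, Cdk3, against 6.77% of all 9568 measured genes. At least 2-fold lower were 2 genes, Cdkn2b and Cdk1, against 5.99% of all genes. These shares are not matched for brightness. Of all 9568 genes, 1031 lay above the floor only on the Elongin A-/- array and 1008 only on the Elongin A+/+ array. With the floor at the 75th percentile the shares were 2.61% and 2.19%, beside 0 of 57 cell cycle genes either way. How far brightness goes with the low counts was not tested. At a margin of 1.5-fold, 5 were higher, where the share over all genes was 15.8%, and 10 were lower, where it was 14.8%. Where both arrays gave values over the floor, 97.0% of the cell cycle genes and 90.1% of all genes lay within 2-fold, while the median absolute log2 difference was 0.33 in each. Within the SD between probes lay 47 of these 67 cell cycle genes (70.1%) and 60.1% of all genes above the floor on both. The widest difference among the cell cycle genes was 3.08-fold, and their typical difference was of the same size as over all genes. By any margin 29 were higher, a share to set beside 48.4% of all genes, and 42 were lower, beside 51.6%. Their median log2 difference was -0.08 (binomial 95% interval over genes -0.24 to 0.13), against -0.02 over all measured genes. With the values as deposited it was 0.01, against 0.07 over all genes, and 36 were higher and 35 lower, so the direction of the set as a whole depends on the scaling.

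**Figure D1:**
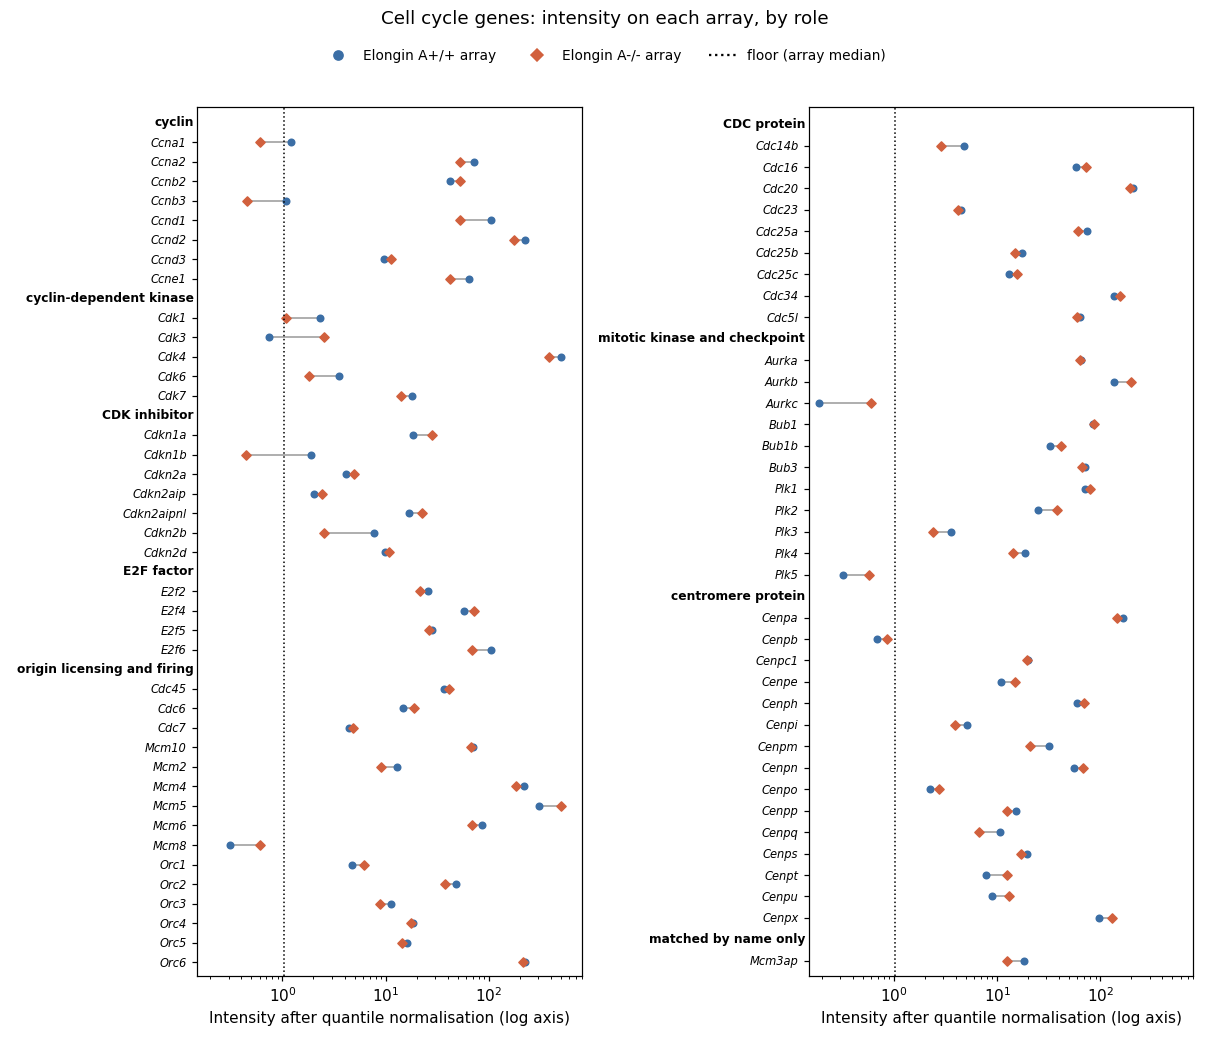
Intensity of each of the 75 cell cycle genes on the Elongin A+/+ array (circles) and the Elongin A-/- array (diamonds), grouped by role, on a log axis; the dotted line is the floor of 1.03. Most pairs lie close together, and the wide pairs include Cdkn2b (7.74 and 2.51) and Cdk1 (2.30 and 1.08).

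**Figure D2:**
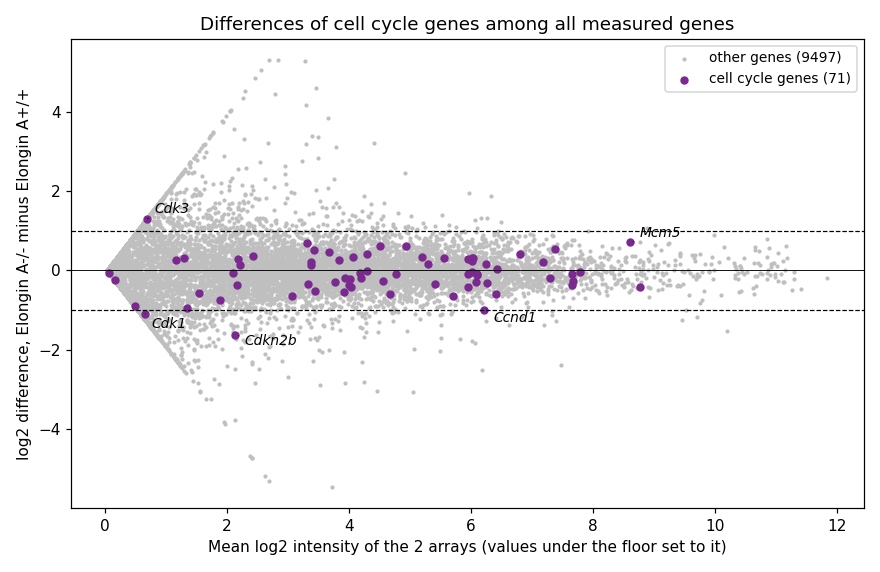
Log2 difference (Elongin A-/- minus Elongin A+/+) against the mean log2 intensity of the 2 arrays for the 71 measured cell cycle genes and all other measured genes; dashed lines mark 2-fold. Cdk3 lies above the upper line and Cdkn2b and Cdk1 below the lower, while Ccnd1 lies on the lower line at -0.998.

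The promoters of Cdkn2b, Cdk1 and Mcm5 are shown because Cdkn2b and Cdk1 had the widest lower differences of the set and Mcm5 the widest higher difference where both values exceeded the floor. Each is the 250 bases before the gene's start, from RefSeq on GRCm38.p6, on the gene's own strand. Capitals mark 3 kinds of motif, searched on both strands: the E2F site (TTTCCCGC, TTTCGCGC, TTTGCCGC or TTTGGCGC), the cell cycle genes homology region, or CHR, found at many mitotic genes (TTTGAA), and the CCAAT box (CCAAT).
Cdkn2b, chr4:89311033-89311282, minus strand: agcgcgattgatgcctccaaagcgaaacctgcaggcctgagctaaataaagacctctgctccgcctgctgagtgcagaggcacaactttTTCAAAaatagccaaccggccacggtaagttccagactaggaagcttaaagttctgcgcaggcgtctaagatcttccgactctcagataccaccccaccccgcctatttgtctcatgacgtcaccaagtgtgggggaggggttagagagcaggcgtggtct
Cdk1, chr10:69352913-69353162, minus strand: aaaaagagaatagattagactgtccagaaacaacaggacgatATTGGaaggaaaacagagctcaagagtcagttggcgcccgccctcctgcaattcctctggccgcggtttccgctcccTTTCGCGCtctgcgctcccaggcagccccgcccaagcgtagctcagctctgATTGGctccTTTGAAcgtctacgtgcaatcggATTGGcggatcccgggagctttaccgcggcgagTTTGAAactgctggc
Mcm5, chr8:75109259-75109508, plus strand: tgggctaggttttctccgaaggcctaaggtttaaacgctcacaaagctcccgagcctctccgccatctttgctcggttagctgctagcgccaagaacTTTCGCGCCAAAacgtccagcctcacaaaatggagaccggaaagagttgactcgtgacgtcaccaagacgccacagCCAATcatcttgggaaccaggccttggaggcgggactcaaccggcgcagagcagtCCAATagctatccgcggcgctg
The Cdk1 window held 1 E2F match, 2 CHR matches and 3 CCAAT matches, the nearer CHR match ending 10 bases before the start. Mcm5 had 2 overlapping E2F matches, between 153 and 142 bases before the start, 2 CCAAT matches and no CHR match. The Cdkn2b window held a single CHR match and neither of the others.

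Promoters were found in the RefSeq table for 65 of the 75 genes. An E2F match lay in 10 of the 65 (15.4%), against 2.16% of 27025 genes in the table, coding or not. CHR matches lay in 10 of the 65 (15.4%), against 18.3% of genes in the table, a share no larger than in the whole table. CCAAT was found in 36 of the 65 (55.4%), against 37.5%. The 9 measured genes with an E2F match ran from -1.10 (Cdk1) to 0.70 (Mcm5), 4 of them higher on the Elongin A-/- array, with a median of -0.30. In the 52 measured genes without one the median was -0.07, with 21 higher. The 10 genes with a CHR match had a median of -0.11 and the 51 without it -0.07. Genes that share a motif thus lay on either side of 0. A match describes the letters only and does not show that a factor binds there.

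Among the cyclins, those of the first gap phase were lower on the Elongin A-/- array, apart from Ccnd3. Ccnd1, cyclin D1, the partner of Cdk4 and Cdk6 that growth signals induce, had intensities of 105 and 52.7, a log2 difference of -0.998 that falls just inside 2-fold (1.997-fold). Ccnd2, a second D-type cyclin, had 227 and 177 (-0.36), while Ccnd3, the third, had 9.63 and 11.2 (0.22). Ccnd2 lies on chromosome 6, and with that chromosome's median removed its difference was -0.09. Ccne1, cyclin E1, which activates Cdk2 at the start of DNA synthesis, had 65.0 and 41.8 (-0.64). Ccnd1 and Ccne1 thus differed by more than the SD between probes of a gene, and Ccnd2 and Ccnd3 by less. The later cyclins did not run together. Ccna2, cyclin A2, which works through DNA synthesis into mitosis, had 71.5 and 53.1 (-0.43). Ccnb2, a mitotic B-type cyclin, had 42.0 and 52.4 (0.32). The germ cell cyclins Ccna1 (1.22 on the Elongin A+/+ array) and Ccnb3 (1.08) were barely above the floor there and under it on the Elongin A-/- array. The median of the 8 cyclins was -0.30, with 6 lower and 2 higher, and it ran from -0.32 to -0.14 over the other scalings tried.

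The kinases that bind the early cyclins were lower too. Cdk4, which pairs with D-type cyclins, had 503 and 379.8 (-0.41). Cdk6, the related kinase, had 3.53 and 1.83 (-0.95, or 1.93-fold lower), and with a pseudocount at the floor its difference was -0.67. Taken with the D-type and E-type cyclins, 5 of these 6 genes were lower, with a median of -0.52 (binomial 95% interval over genes -0.998 to 0.22) that lay between -0.52 and -0.44 under the other scalings. This grouping was made after the values were seen. Cdk1, the mitotic kinase, had 2.30 and 1.08 (-1.10, or 2.14-fold lower). Its value on the Elongin A-/- array lies just above the floor of 1.03, and with a pseudocount at the floor the difference was -0.66. Cdk7, the CDK-activating kinase that is also a subunit of the general transcription factor TFIIH, had 18.2 and 14.2 (-0.36). Cdk3, a kinase that common laboratory mouse strains are known to carry in a truncated form, was under the floor on the Elongin A+/+ array and had 2.54 on the Elongin A-/- array, at least 2.47-fold higher. It is 1 of the genes on chromosome 11, and with that chromosome's median removed its difference was 0.89. Cdk2 and Cdk5, like Ccnb1, Ccne2 and Mki67, were not named among the probes used here.

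The inhibitors of these kinases split, with the widest lower difference of the whole set in Cdkn2b. Cdkn2b encodes p15INK4b, which blocks Cdk4 and Cdk6 and is induced by TGF-beta, and it had 7.74 and 2.51 (-1.63, or 3.08-fold lower). With the floor at the 75th percentile that difference was -0.57, since the dimmer value then has only a bound. Cdkn2a, its neighbour on chromosome 4, which encodes p16INK4a and p19ARF, had 4.10 and 4.99 (0.28), and Cdkn2d, p19INK4d, had 9.91 and 10.9 (0.13). The INK4 inhibitors on the arrays therefore did not differ in the same direction. In the other inhibitor family, Cdkn1a, the p53 target p21, had 18.3 and 28.1 (0.61). Cdkn1b, p27, which holds Cdk2 in check as cells leave the cycle, had 1.91 on the Elongin A+/+ array and was under the floor on the Elongin A-/- array, at least 1.86-fold lower. Cdkn2aip, which encodes a protein that binds p19ARF, had 2.04 and 2.44, and its relative Cdkn2aipnl 16.9 and 22.6. Over the 5 kinase inhibitors themselves the median was 0.13, with 3 higher and 2 lower, and 0.20 with chromosome medians removed.

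Of the E2F factors, E2f6, a repressor that works with Polycomb proteins, had the widest difference, with 104 and 69.1 (-0.59). E2f2, an activator of replication genes, had 25.9 and 21.5 (-0.27). E2f4 and E2f5 act as repressors with the pocket proteins in resting cells, and they had 57.8 and 72.4 (0.33) and 28.0 and 26.3 (-0.09). The sign of E2f5 turned with the values as deposited (0.01), and that of E2f4, on chromosome 8, with chromosome medians removed (-0.11). E2f1, E2f3, E2f7 and E2f8 were not named among the probes.

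Of 14 measured genes that license and fire replication origins, 12 lay within the SD between probes. Of all genes above the floor on both arrays 60.1% did, a share not matched for brightness. Mcm5 and Mcm2 lay outside that SD before chromosome medians were removed. Origins are marked by the origin recognition complex (Orc1 to Orc6), loaded with the Mcm2 to Mcm7 helicase with the help of Cdc6, and fired by the kinase Cdc7 with Cdc45. Mcm5 had 305 and 497 (0.70, or 1.63-fold higher), the widest higher difference of a gene whose values both exceeded the floor. Its partners in the same hexamer were lower: Mcm2 had 13.0 and 9.08 (-0.52), Mcm4 222 and 186 (-0.26) and Mcm6 85.6 and 68.3 (-0.33). Mcm5 lies on chromosome 8, and with that chromosome's median removed its difference was 0.27, while Mcm2, on chromosome 6, was then at -0.26. Mcm3 and Mcm7 were not named among the probes. Of the 6 ORC genes 5 were lower and 1 higher, all within the SD between probes, from Orc2 (48.1 and 37.7, -0.35) and Orc3 (11.3 and 8.86, -0.35) to Orc1 (4.75 and 6.14, 0.37). Orc4, Orc5 and Orc6 were at -0.07, -0.18 and -0.04, of which Orc4 and Orc6 turned sign with the values as deposited. With chromosome medians removed, Orc6, on chromosome 8, was at -0.47 and Orc1 at 0.45, both beyond that SD. Cdc6, the loader, had 14.9 and 18.8 (0.33), and with the median of chromosome 11 removed its sign turned (-0.08). The firing factors were close, Cdc7 with 4.42 and 4.84 (0.13) and Cdc45 with 37.0 and 41.5 (0.17), and Mcm10, which joins the helicase to the polymerase, had 70.7 and 66.8 (-0.08). The 14 genes had a median of -0.07, which was 0.01 as deposited, where the median over all genes was 0.07. Mcm3ap matched the rule by name, but it encodes an mRNA export protein that binds Mcm3 and is no helicase subunit, and it had 18.2 and 12.6 (-0.54).

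Of the 9 Cdc genes outside the origins 8 lay within the SD between probes, beside 60.1% of all genes above the floor on both arrays. Cdc25a, the phosphatase that activates Cdk2 at the start of DNA synthesis, had 75.1 and 60.9 (-0.30), Cdc25b, an early mitotic activator, 17.5 and 15.0 (-0.22), and Cdc25c, the third family member, 13.0 and 15.5 (0.26). The anaphase-promoting complex, the ubiquitin ligase that ends mitosis, was represented by its activator Cdc20 (208 and 194, -0.10) and its subunits Cdc16 (58.4 and 72.6, 0.31) and Cdc23 (4.41 and 4.20, -0.07). Cdc20 and Cdc23 turned sign with the values as deposited, and Cdc16, on chromosome 8, with chromosome medians removed. Cdc34, a ubiquitin-conjugating enzyme that helps remove Cdk inhibitors, was at 0.21, and Cdc5l, a splicing factor, at -0.09. Cdc14b, a phosphatase, was the exception with 4.78 and 2.86 (-0.74).

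The mitotic kinases and spindle checkpoint genes had a median of 0.03, with 5 of 9 higher and 4 lower. Aurka and Plk1, kinases of centrosome maturation and mitotic entry, were nearly level, with 65.6 and 64.2 (-0.03) and 71.2 and 80.1 (0.17). The checkpoint genes Bub1 (84.7 and 86.7, 0.03) and Bub3 (71.4 and 66.2, -0.11) were level as well, and Bub1b, which encodes BubR1, was at 0.33. Aurkb, the kinase of the chromosomal passenger complex, had 137 and 199.95 (0.54), and with the median of chromosome 11 removed its difference was 0.13. The Polo-like kinases split. Plk2, a stress-responsive p53 target, had 24.8 and 37.8 (0.61), whereas Plk3 had 3.55 and 2.37 (-0.58) and Plk4, which starts centriole duplication, 18.8 and 14.1 (-0.42). The 5 genes at least 1.5-fold higher were Cdk3, Mcm5, Cenpt, Cdkn1a and Plk2.

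The centromere proteins, which build the base on which the kinetochore forms, split evenly, with 7 of 14 higher and 7 lower and a median of 0.11. Cenpa, the histone variant that marks the centromere, had 168 and 146 (-0.20), and Cenpc1, which binds it, was level with 19.8 and 19.5 (-0.02). Cenpe, a kinesin that captures microtubules, had 10.9 and 15.0 (0.46), and its other probe was higher too (2.51 and 4.71, 0.91). Cenpt had the widest higher difference of the group, with 7.81 and 12.5 (0.68), and Cenpu was at 0.53. Both lie on chromosome 8 and were at 0.25 and 0.09 with that chromosome's median removed. Cenpq (10.5 and 6.71, -0.65) and Cenpm (31.5 and 20.8, -0.60) were lowest. Cenpq and Cenpu are subunits of the same inner kinetochore subcomplex and lay on opposite sides. The other centromere genes above the floor ran from -0.37 (Cenpi) to 0.41 (Cenpx), of which Cenpx and Cenpn (0.29) turned sign with chromosome medians removed, and the median of the group was -0.03 with chromosome medians removed.

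The position of a gene on the chromosomes went along with its direction. Chromosomes 8 and 11 were looked at because earlier results of these data had shown that their genes were higher on the Elongin A-/- array, with medians of 0.43 over 522 genes and 0.41 over 803 genes. Chromosome 6 was lower, with -0.26 over 518 genes, and the medians of the other 17 chromosomes lay between -0.13 and 0.00. Of the 13 cell cycle genes on chromosomes 8 and 11, 12 were higher and 1 lower, with a median of 0.41, where 77.2% of all 1325 measured genes of these chromosomes were higher and their median was 0.42. The exception was Orc6, on chromosome 8, with 223 and 217 (-0.04). Of the 58 measured cell cycle genes on the other chromosomes, 17 were higher and 41 lower, with a median of -0.19 (binomial 95% interval over genes -0.33 to -0.07), where 43.7% of all 8243 genes were higher and the median was -0.06. With the values as deposited the median of the 58 was -0.08, where that of all measured genes on all chromosomes was 0.07. All 3 cell cycle genes on chromosome 6, Ccnd2, Cdkn1b and Mcm2, were lower, where 32.0% of all 518 measured genes of that chromosome were higher. Cdkn1b is a bound and could not come out higher. With the median of each chromosome removed, 6 of the 13 genes on chromosomes 8 and 11 were higher and 7 lower. Of the other 58, 20 were then higher and 38 lower. The median over all measured genes is 0 by construction in that setting. Intervals over genes cover no spread between cultures, so a shift of these genes was not tested. Whether the ES cell lines differ in copies of these chromosomes was not tested.

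**Figure D3:**
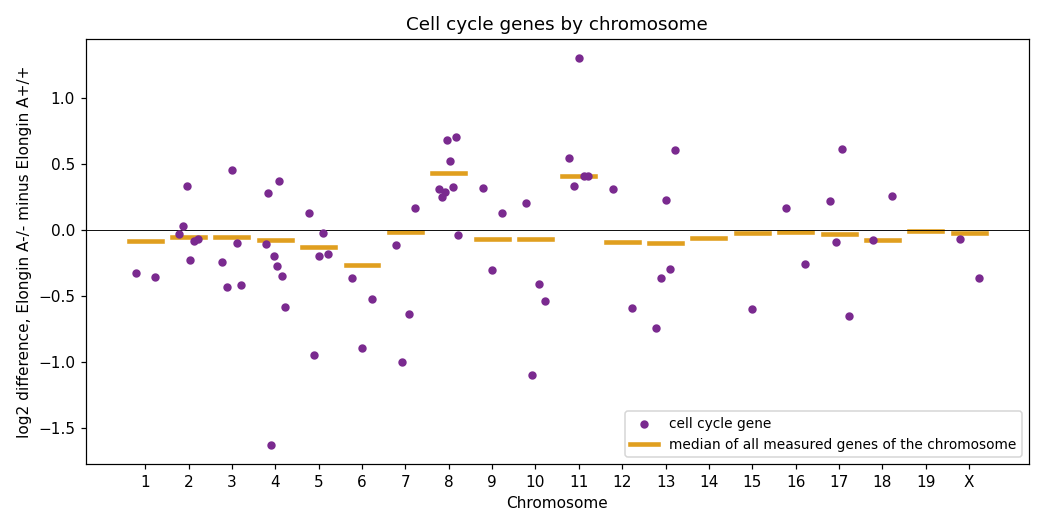
Log2 difference (Elongin A-/- minus Elongin A+/+) of each of the 71 measured cell cycle genes by chromosome (points), with the median of all measured genes of that chromosome (bars). On chromosomes 8 and 11 the points lie around the raised bars, with 12 of 13 above 0, and on the other chromosomes 41 of 58 lie below 0.

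Other genes of the same processes, from a list of 107 replication, checkpoint and mitosis genes outside the symbol rule, also held few wide differences. Named on the arrays were 91, and 84 were measured. Of the 84, 2 were at least 2-fold higher (6.77% of all genes were) and 3 lower (5.99% of all genes). Their median was -0.04. With the values as deposited it was 0.06, where the median over all genes was 0.07. Wee1, the kinase that holds Cdk1 inactive, had 3.45 on the Elongin A+/+ array and was under the floor on the Elongin A-/- array, at least 3.36-fold lower. Tfdp2, a dimer partner of the E2F factors, had 9.93 and 3.98 (-1.32), and Wdhd1, a replication fork scaffold, 4.04 and 1.85 (-1.13). The higher genes were Foxm1, a transcription factor of mitotic genes, with 1.07 and 2.33 (1.13) from just above the floor, and Stag2, a cohesin subunit, with 2.13 and 4.48 (1.07). Common markers of dividing cells differed in both directions. Pcna, the polymerase clamp, had 487 and 395 (-0.30), while Top2a, the mitotic topoisomerase, had 78.6 and 113 (0.53) and Tk1, thymidine kinase, 2.53 and 4.59 (0.86), the last 2 on chromosome 11. Of 13 genes of this list on chromosomes 8 and 11, 11 were higher (median 0.47), where 77.2% of all genes were (median 0.42). Elsewhere 26 of 71 were higher (median -0.10), where 43.7% of all genes were (median -0.06). Pold2, a subunit of polymerase delta, with 34.4 and 67.6 (0.98), Gins4, of the helicase complex, with 39.3 and 74.1 (0.91), and Cdt1, which loads the Mcm helicase, with 34.0 and 59.2 (0.80), lie on these chromosomes.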

How the data were processed

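Total RNA of 1 sample per genotype was hybridised to 1 array each (2 arrays in all) after it was transcribed to digoxigenin-labelled cRNA, per the labels' protocols. The deposited table holds linear intensities, with medians of 1.02 and 1.03, and the sources used here do not give the authors' background correction or normalization. Neither scanner values nor detection calls were used, and precision is limited by the number of arrays.

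Arrays were grouped by title. Of 32440 probes, 14253 have 1 gene symbol in the platform annotation, 243 several and 17944 none, and only the first were named. Chromosomes came from the RefSeq gene table of GRCm38.p6, which held all 75 genes. The arrays were quantile normalised, which forces the same distribution on both. The floor was the array median, and a gene counted as measured if above it on at least 1 array. A gene with several probes (2 of the 75) was represented by the one with the higher mean log2 value. Genes were counted at 2-fold with no p-value. Intervals of medians are binomial 95% intervals over genes and cover no spread between cultures.

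Named were all genes at least 2-fold apart, a fixed list of central regulators, and the highest and lowest gene of each role. The other genes named were chosen after their values were seen. The genes, lists and chromosomes were chosen with earlier results of these data known. The alternatives were the deposited values, median centring, removal of a loess trend (span 0.3), other floors, a pseudocount, other uses of probes, and chromosome medians removed. The code was tested on simulated data and ran in Python 3.11.15 with pandas 2.3.3 and statsmodels 0.14.6.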

Additional observations from a re-analysis of the deposited data

How the results depend on the processing

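The number of cell cycle genes at least 2-fold higher was 1 and lower 2. These counts were the same with the deposited values, median centring, probes averaged and genes of 1 probe. In these settings the shares over all genes ran from 6.7% to 8.36% higher and from 4.69% to 6.05% lower. With a pseudocount the counts were also 1 and 2, over 75 genes (3.16% and 2.89% of all genes). There Cdk1 (-0.66) was no longer 2-fold lower and Cdkn1b (-1.0003) was. Of all genes at least 2-fold apart 53.1% were higher, and 64.1% with the values as deposited. With the floor at the 25th percentile 1 was higher and 5 lower (8.65% and 7.9% of all genes). With no floor 2 were higher and 5 lower (11% and 10.3%). At the 75th percentile 0 of 57 were higher and 0 lower (2.61% and 2.19%). Those further genes (Ccna1, Ccnb3 and Cdkn1b lower, and Aurkc higher) were under the floor on at least 1 array. With a loess trend removed 1 was higher and 3 lower (7.12% and 5.54% of all genes), the third being Ccnd1. With chromosome medians removed, or without chromosomes 6, 8 and 11, 0 were higher and 2 lower. The shares over all genes were 6.36% and 5.74% with medians removed, and 5.89% and 6.21% without these chromosomes. At 1.5-fold 5 were higher and 10 lower (15.8% and 14.8% of all genes), and at 3-fold 0 and 1 (2.23% and 1.86%). The median stayed within its interval throughout, from -0.18 without chromosomes 6, 8 and 11 to 0.01 as deposited, and its sign turned with the latter setting. Among single genes 7 turned sign as deposited and 9 with chromosome medians removed, none of them at least 2-fold apart. No paired analysis was possible because each genotype has 1 array. Dim genes near the floor limit the calls: each of the 3 genes at least 2-fold apart had an intensity of 2.51 or lower on an array.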

Other observations

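Subunits of the anaphase-promoting complex outside the symbol rule lay on either side of 0. Anapc2, the cullin subunit, had 21.6 and 33.3 (log2 difference 0.63), while Anapc5, a scaffold subunit, had 26.0 and 15.7 (-0.73). Anapc4, Anapc10, Anapc11, Anapc13 and Anapc7 ran from -0.19 (Anapc4) to 0.36 (Anapc7). Ube2c, the ubiquitin-conjugating enzyme of the complex, had 2251 on both arrays after normalisation. The activator Fzr1 was level (26.1 on both).

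Genes of cell division itself also differed in both directions. Anln, the anillin of the cleavage furrow, had 23.8 and 12.3 (-0.96), and Kif23 and Racgap1, of the central spindle, were at -0.40 and -0.37. Pttg1, the securin gene, and Birc5, the survivin gene, were at 0.56 and 0.47, and both lie on chromosome 11, where the median of all measured genes was 0.41. These genes were chosen after their values were seen.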
